A study of Tursiops truncatus with 31 samples.

Results

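RNF149, CCSER2, SHISA2, CASP2, TMEM167A and TPPP3 were the 6 of 9610 genes in dolphin blood chosen as lying nearest an annual cycle. They were picked from fits to the same libraries: the first 5 had the smallest p among genes with a symbol when a cosine wave with a period of 1 year was fitted to the sampling dates (ranks 2 to 6 of all genes), and TPPP3, at rank 246 in that fit, ranked 4 in the comparison of summer with winter. Their monthly profiles, peak dates and seasonal differences are therefore given as a description, with no test. The tests below concern sex and individual animal, whose labels the choice did not use. The fits behind the choice had no term for either, so differences between animals or sexes counted there as scatter. Genes with small differences of this kind were thus favoured, and the results of the 6 in these tests are not independent of the choice. The next gene with a symbol, just outside the choice at rank 7, was BCKDHB, with an amplitude of 0.81 on the log2 scale, followed by MTFP1 (1.09) and RP9 (1.06). The amplitudes of the first 5 genes ran from 0.80 for CCSER2 to 1.95 for TMEM167A, so no gap in amplitude marked the choice.

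Blood was drawn at about monthly intervals within 1 calendar year from 4 healthy managed bottlenose dolphins, the females Keo (12 years, 9 libraries) and Pele (28 years, 7 libraries) and the males Hua (5 years, 8 libraries) and Kai (17 years, 7 libraries). No animal was treated, and RNA of all 31 libraries was depleted of globin transcripts with RNase H before sequencing. Libraries from July, August and September were the summer group (8 libraries), those from December and February the winter group (8 libraries). There were 4 libraries from February, 3 from March, 3 from April, 4 from May, 2 from June, 3 from July, 3 from August, 2 from September, 2 from October, 1 from November and 4 from December, with no library from January. The October and November libraries came from Hua and Keo, so that the profiles of Pele and Kai had no point between September and December. Levels are given as FPKM, the sequenced fragments of a gene scaled to its transcript length and to the size of the library, and fits used log2(FPKM + 1), on which differences between low values come out too small.

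An annual cycle in blood means a transcript whose level swings once a year. In mammals such cycles are known for leukocyte numbers and for immune transcripts, and in bulk blood fewer cells of a type and less RNA per cell cannot be told apart. The 6 genes belong to no common pathway. RNF149 (ENSTTRG00000016450) is a membrane-bound ubiquitin ligase of the PA-TM-RING family, which marks proteins on endosomes and other membranes for degradation. CASP2 (ENSTTRG00000010755) is an initiator caspase that is activated on a scaffold of PIDD1 and CRADD. TMEM167A (ENSTTRG00000009033) is the mammalian relative of the yeast and fly protein Kish, a small Golgi membrane protein of the early secretory pathway. CCSER2 (ENSTTRG00000015073) and TPPP3 (ENSTTRG00000000453) bind and bundle microtubules, and SHISA2 (ENSTTRG00000012740) belongs to a family known from frog embryos for holding Frizzled and FGF receptors back in the endoplasmic reticulum.

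Blood cell markers were present: 13 of 16 erythroid, 8 of 13 neutrophil, 8 of 10 monocyte, 10 of 11 T cell and 8 of 9 B cell markers were among the genes measured, and all 8 B cell markers were above 0 in every library. Globin genes still took 5.68% to 43.1% of the summed FPKM. Depth ran from 0.695 to 1.83 of the median library, as judged from the step by which low FPKM values go up with each read. The libraries differed more in the number of genes listed at 0, which ran from 13 (Keo, March) to 1648 (Kai, February) with a median of 472. In 8 libraries there were more than 800 genes at 0 (Kai February, April and July, Hua March and May, Keo February, June and December).

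RNF149 had its lowest libraries between February and June in all 4 dolphins and its highest between August and December in 3 of them. In Keo the libraries from February to December held 0, 1.56, 0.83, 2.63, 0, 3.58, 17.3, 18.1 and 8.41 FPKM. In Pele they held 8.03, 3.25, 0, 4.37, 7.71, 8.86 and 8.90 FPKM, and in Hua 3.01, 0, 2.34, 6.35, 7.79, 9.64, 7.66 and 6.41 FPKM. Kai differed, with 2.85, 6.97, 0.55, 0.96, 4.15, 5.44 and 4.25 FPKM, since the highest library was that of April. The October and November libraries of Keo stood above all others. Set by calendar, the 15 libraries from July to December ranged from 3.58 to 18.1 FPKM with a median of 7.71, and the 16 libraries from February to June from 0 to 8.03 with a median of 1.95. These ranges overlapped through the February library of Pele and the April library of Kai, among others, while within Hua and within Keo every July to December library exceeded every earlier one.

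Such a complete separation of July to December from February to June within an animal was seen in 6 of the 24 pairs of a gene and an animal: RNF149 in Hua and Keo, CCSER2 in Hua and Pele, SHISA2 in Keo and TMEM167A in Hua. Over all genes it held in 2.94% of 38440 pairs, and in 0.593% the earlier libraries lay wholly above. Because the 6 genes were chosen for their course over the year, nothing is read from that difference.

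CCSER2 was a low transcript, with a median of 1.73 FPKM and a range of 0 to 7.91 over all libraries. In Pele it held 1.87, 0.58, 1.65, 3.97, 6.73, 2.17 and 7.91 FPKM, and in Hua 0.94, 0.51, 1.73, 0.04, 3.17, 2.49, 5.86 and 4.23 FPKM. In Keo it held 3.09, 1.83, 0.73, 1.01, 0, 4.05, 2.44, 5.80 and 3.41 FPKM. The late libraries were the higher ones in these 3 animals, apart from the February library of Keo. Kai again differed, staying between 0.35 and 1.51 FPKM in all 7 libraries, with its lowest value in July.

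SHISA2 was at the edge of detection. It was listed at 0 in 15 of the 31 libraries, and the 16 libraries above 0 were the smallest number the authors' filter allowed for any gene. Its values corresponded to a median of 2.02 reads and at most 50 reads per library, with 23 libraries under 10 reads. In Keo the 4 libraries from July to December held 4.51, 11.0, 5.18 and 5.67 FPKM, and the 5 earlier ones 0, 0.52, 0.71, 2.26 and 0 FPKM. In Pele the December library (8.61 FPKM) and the February library (3.11 FPKM) were the highest, and in Hua the December library (4.78 FPKM). Kai had 1.99 FPKM in September, 0.73 in December and 0 in the other 5 libraries. The libraries above 3 FPKM thus fell between August and December, apart from that of Pele in February.

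CASP2 had its lowest library in February in 3 of the 4 dolphins. The February libraries of Keo, Pele and Kai were listed at 0, and that of Hua held 4.44 FPKM. From there the courses parted. In Keo the later libraries held 2.66, 2.91, 1.94, 5.65, 6.13, 10.5, 4.25 and 4.56 FPKM, in Pele 2.06, 8.43, 11.7, 4.79, 4.46 and 13.4 FPKM. In Kai they held 0.39, 1.19, 8.46, 4.27, 5.76 and 7.44 FPKM and in Hua 0.89, 4.02, 4.43, 6.55, 4.78, 8.31 and 1.10 FPKM. The December libraries went apart, with the highest value of all in Pele and the second lowest of Hua. The 8 summer libraries ranged from 4.27 to 11.7 FPKM with a median of 5.28, and the 8 winter libraries from 0 to 13.4 with a median of 2.77, so the seasons overlapped and summer was the narrower group.

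TMEM167A was the most abundant of the 6, with a median of 33.5 FPKM, and its values split into libraries at 0 and libraries mostly above 10 FPKM. It was listed at 0 in 7 libraries, all drawn between February and June: those of Hua in March, April and May, of Kai in February and April, and of Keo in February and June. The other libraries of Hua held 8.77, 17.7, 36.5, 42.3 and 42.2 FPKM, those of Kai 34.0, 54.4, 15.3, 65.9 and 38.1 FPKM and those of Keo 32.2, 3.09, 43.7, 45.2, 64.8, 18.6 and 65.5 FPKM. Pele, whose libraries held 23.0, 58.6, 11.8, 64.6, 55.7, 34.5 and 33.5 FPKM, had no library at 0, and its highest libraries were those of July and March. From July to December the 15 libraries ranged from 15.3 to 65.9 FPKM with a median of 42.2, and from February to June the 16 libraries ranged from 0 to 58.6 with a median of 5.93.

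TPPP3 was the one gene of the 6 that ranked higher by summer against winter than by the yearly wave. All 8 summer libraries were above 0, from 2.22 to 26.9 FPKM with a median of 9.61, and the 8 winter libraries ran from 0 to 10.2 FPKM with a median of 0.62, 3 of them at 0. The groups overlapped through the September library of Pele (2.22 FPKM) and the December libraries of Kai (10.2), Pele (6.88) and Keo (3.72). Outside both seasons 9 of 15 libraries were at 0, among them those of Keo in October and November. Yet Kai reached 20.2 FPKM in June, Pele 14.9 in March and Keo 7.71 in April. On the log2 scale TPPP3 was 2.11 higher in summer than in winter, against a median of -0.04 over all genes. The same difference was 1.54 for TMEM167A, 1.15 for CASP2, 0.46 for RNF149, 0.11 for CCSER2 and -0.60 for SHISA2. No gene was called between the seasons at an adjusted p under 0.05 with limma (0% of 9610 genes), and 285 genes (2.97%) had an unadjusted p under 0.05.

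**Figure D1:**
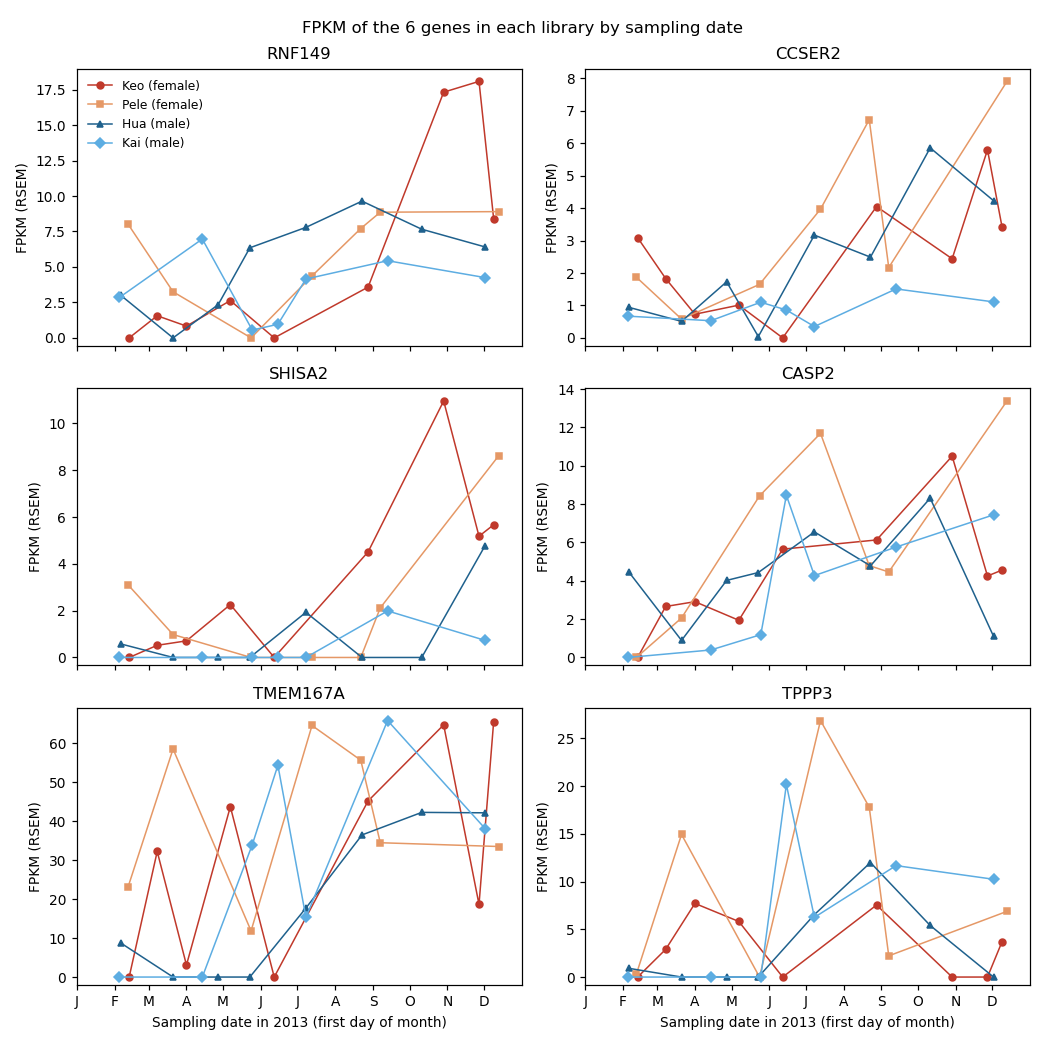
FPKM (RSEM) of RNF149, CCSER2, SHISA2, CASP2, TMEM167A and TPPP3 in each of the 31 libraries (y axis) by sampling date (x axis), with a line for each of the 4 dolphins. RNF149 is highest in the October and November libraries of Keo (17.3 and 18.1 FPKM), and CCSER2 goes no higher than 1.51 FPKM in Kai. TMEM167A and TPPP3 return to 0 in several libraries before July. TPPP3 is also at 0 in October and November in Keo and in December in Hua.

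The fitted wave placed all 6 pooled peaks between late August and November. CASP2 and TPPP3 formed an early pair, with peaks on 1 September and 24 August, TMEM167A followed on 1 October, RNF149 on 21 October and CCSER2 on 25 October, and SHISA2 came last on 18 November. Amplitudes, the height of the wave above its mean level in log2 units, were 1.15 for RNF149, 0.80 for CCSER2, 1.02 for SHISA2, 0.97 for CASP2, 1.95 for TMEM167A and 1.11 for TPPP3, against a median of 0.25 over all genes. The wave took up 46.0% of the variance of CCSER2, 45.4% of that of RNF149, 40.8% of that of SHISA2 and of CASP2, 36.3% of that of TMEM167A and 21.3% of that of TPPP3. No gene was called by the F test of the wave in limma (0% of 9610 genes called at an adjusted p under 0.05), with 729 genes (7.59%) at an unadjusted p under 0.05, and the 6 are hence the genes nearest a cycle and not genes called as cyclic.

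A peak in autumn was not peculiar to these genes. Of all 9610 genes, 65.7% had their fitted peak between August and November, and of the genes at an unadjusted p under 0.05, 87.0%. When the libraries were first scaled to each other by the median ratio over genes, the share of all genes was 39.0%, while the pooled peak dates of the 6 genes moved by a few days at most, to 20 August for TPPP3, 27 August for CASP2, 28 September for TMEM167A, 21 October for RNF149, 25 October for CCSER2 and 20 November for SHISA2. Their amplitudes on the scaled values were 1.02 for RNF149, 0.70 for CCSER2, 0.92 for SHISA2, 0.90 for CASP2, 1.85 for TMEM167A and 1.08 for TPPP3.

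Fitted separately in each dolphin, 23 of 24 peaks lay within 60 days of the pooled peak of the same gene and 19 within 30 days. The pooled fit held the same libraries, from which the genes were also chosen, so such closeness was partly built in. The share over all genes is not given, and nothing is read from the counts. Some of these waves were nearly flat, taking up 10.7% of the variance of TMEM167A and 11.1% of that of TPPP3 in Pele. The peaks of CASP2 lay closest to the pooled one, on 3 September in Keo, 23 August in Pele, 6 August in Hua and 10 September in Kai. For CCSER2 they fell on 25 November, 19 October, 12 October and 12 October in the same order of animals, and for RNF149 on 30 October, 12 November, 6 September and 20 November. The peaks of RNF149 in Hua and Kai were thus the ones farthest apart for that gene, and its amplitude in Kai, 0.52, was the smallest of the 4, against 1.64 in Keo, 1.56 in Pele and 1.22 in Hua. SHISA2 peaked on 13 October in Keo, 12 December in Pele, 25 November in Hua and 11 October in Kai. TMEM167A peaked on 17 October in Keo, 28 September in Pele, 16 October in Hua and 2 September in Kai, with amplitudes of 1.57, 0.36, 3.06 and 3.24, so that it scarcely swung in Pele, the animal with no library at 0. TPPP3 held the exception, with a peak on 29 May in Keo, 87.3 days before the pooled one, and peaks on 7 September in Pele, 30 August in Hua and 14 September in Kai. Leaving out a whole animal kept every pooled peak between August and November, but the order of the genes shifted. Without Hua, TPPP3 ranked 2797, TMEM167A 343 and CCSER2 122 of 9610 genes, and without Keo RNF149 ranked 62 while TPPP3 came to rank 20. Each of these fits has 3 terms and rests on 7 to 9 libraries of 1 year, and an annual cycle cannot be told apart from any other slow change over that year.

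**Figure D2:**
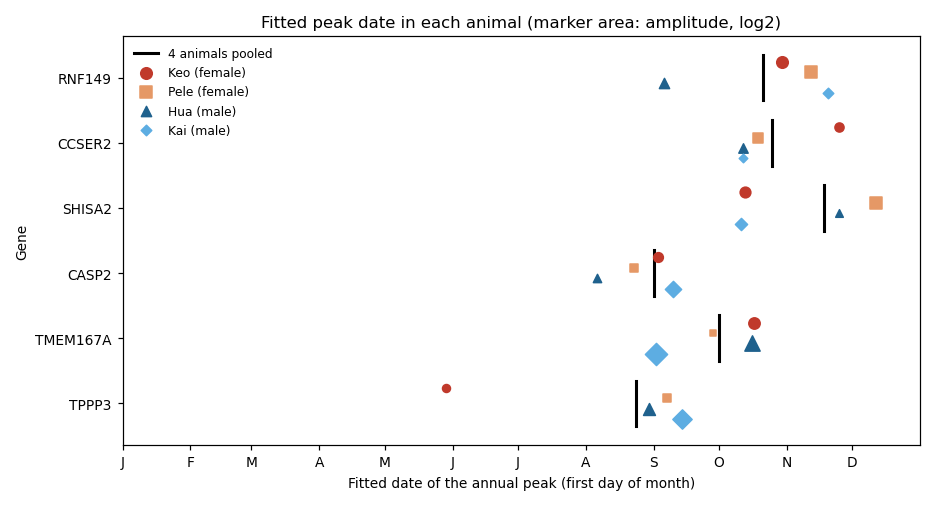
Fitted date of the annual peak (x axis) of each of the 6 genes (y axis) in each dolphin, with marker area growing with the amplitude in log2 units and a black bar for the 4 animals pooled. Markers lie between August and December for every gene and animal but TPPP3 in Keo, whose peak falls on 29 May.

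Zeros were not spread evenly over the libraries. Of the 7 libraries in which TMEM167A was listed at 0, 6 were among the 8 libraries with more than 800 genes at 0, and the seventh, Hua in April, had 606. Libraries with TMEM167A at 0 had a median of 1076 genes at 0 and the others 196.5. RNF149 was at 0 in 4 libraries, 3 of them among those 8, TPPP3 in 12 libraries, 6 of them among those 8, SHISA2 in 15, 7 of them among those 8, CASP2 in 3, 2 of them among those 8, and CCSER2 only in the June library of Keo. Over the year the number of genes at 0 had a fitted wave that took up 0.548% of the variance. The median was 502 genes in the July to December libraries and 336.5 in the earlier ones. The highest counts lay in the earlier libraries, which reached 1648 genes, against 843 from July to December. Of the 8 libraries with more than 800 genes at 0, only those of Kai in July and Keo in December were drawn after June.

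Without those 8 libraries the amplitude was 1.18 for RNF149, 0.65 for CCSER2, 0.98 for SHISA2, 0.66 for CASP2, 0.99 for TMEM167A and 0.98 for TPPP3. That of TMEM167A was thus nearly 1 log2 unit smaller than over all libraries, that of RNF149 was as large, and the peaks stayed between July and December. In that fit, on fewer libraries, RNF149 ranked 1, CCSER2 29, SHISA2 27, CASP2 187, TMEM167A 108 and TPPP3 716 of 9610 genes. With the number of genes at 0 as a covariate the amplitudes were 1.15, 0.80, 1.00, 0.98, 1.94 and 1.15 in the same order. Both settings were added after the values were seen. Across the 31 libraries log2(FPKM + 1) correlated with the log2 number of genes at 0 at r = -0.46 (rho = -0.43) for TMEM167A, negative within each of the 4 animals, and at r = -0.41 (rho = -0.46) for TPPP3, negative within 3. Without the 2 libraries farthest from the median, r was -0.46 for TMEM167A and -0.40 for TPPP3. For RNF149 r was -0.03, for CCSER2 0.03, for CASP2 -0.12 and for SHISA2 -0.24, and for all 4 of these the sign differed between animals (for CCSER2 -0.83 in Kai and 0.63 in Pele, for CASP2 -0.74 in Kai and 0.56 in Pele, for SHISA2 -0.78 in Kai and 0.23 in Keo, for RNF149 -0.30 in Hua and 0.20 in Keo). These are descriptions over libraries that share animals and differ in depth. TPPP3 also went with the globin share of the library (r = 0.37, rho = 0.38, positive within each of the 4 animals) and with its log2 relative depth (r = 0.42, rho = 0.40). With depth r was also 0.35 for CASP2, 0.29 for CCSER2, 0.17 for TMEM167A, 0.14 for RNF149 and 0.03 for SHISA2, and it was positive within each of the 4 animals for TPPP3, CASP2, TMEM167A and RNF149. The part of the zeros, of depth and of the globin share in the course of these genes over the year was not tested.

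**Figure D3:**
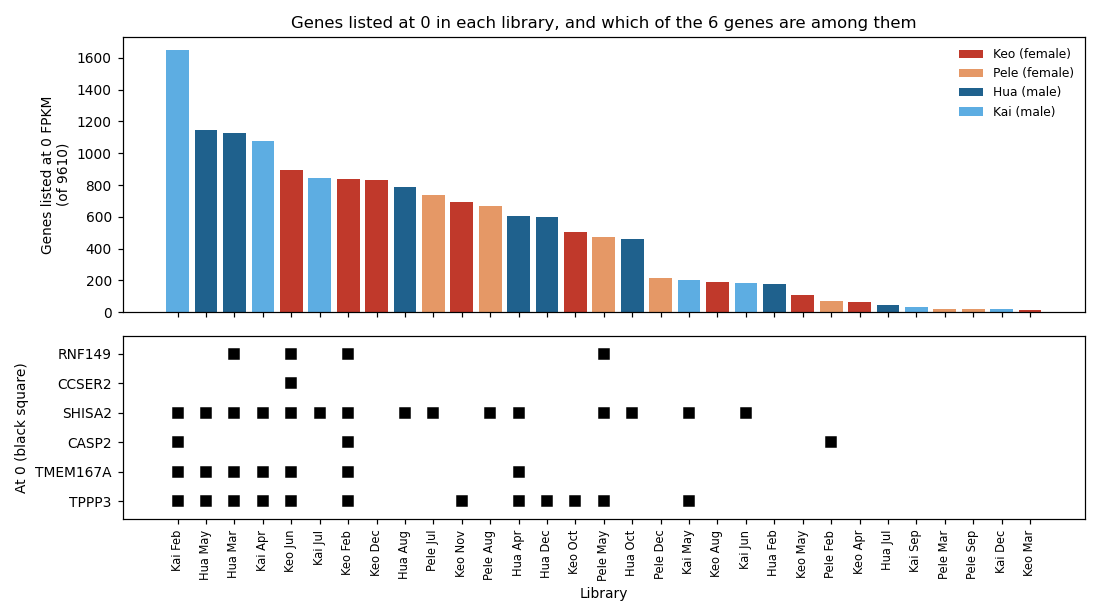
Number of genes listed at 0 FPKM in each of the 31 libraries (upper y axis, of 9610 genes), in falling order, coloured by dolphin, and below it a black square where one of the 6 genes is among them. The squares of TMEM167A stand in libraries with 606 to 1648 genes at 0, and those of SHISA2 and TPPP3 spread over 15 and 12 libraries.

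A zero depended in part on the program. The Cufflinks table, made from the same libraries with another mapper and counter, held 4 of the 6 genes (not CCSER2 and SHISA2). It listed TMEM167A at 0 in the same 7 libraries and in 5 more, in which RSEM gave 33.5 FPKM (Pele, December), 18.6 (Keo, November), 8.77 and 36.5 (Hua, February and August) and 15.3 (Kai, July). Of the 3072 genes with a mean of at least 20 FPKM, 129 (4.20%) were at 0 in at least 1 library and 6 in at least 7, TMEM167A among them. Among genes that every cell uses, 1 of 69 ribosomal protein genes was at 0 in 1 library and none of 34 proteasome subunit genes in any.

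RNF149 was at 0 in the same 4 libraries in both tables, with r = 0.95 between them on the log2 scale, and TPPP3 in the same 12 (r = 0.96). CASP2 was at 0 in 5 libraries by Cufflinks, including the 3 by RSEM (r = 0.93), and for TMEM167A r was 0.79. On the Cufflinks values the pooled peaks were 20 October for RNF149, 14 September for CASP2, 17 September for TMEM167A and 18 August for TPPP3. The wave then took up 14.0% of the variance of TMEM167A, which ranked 844 of 8030 genes, and its peak in Pele moved to 13 June. RNF149 ranked 13, CASP2 9 and TPPP3 584 of those genes.

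**Figure D4:**
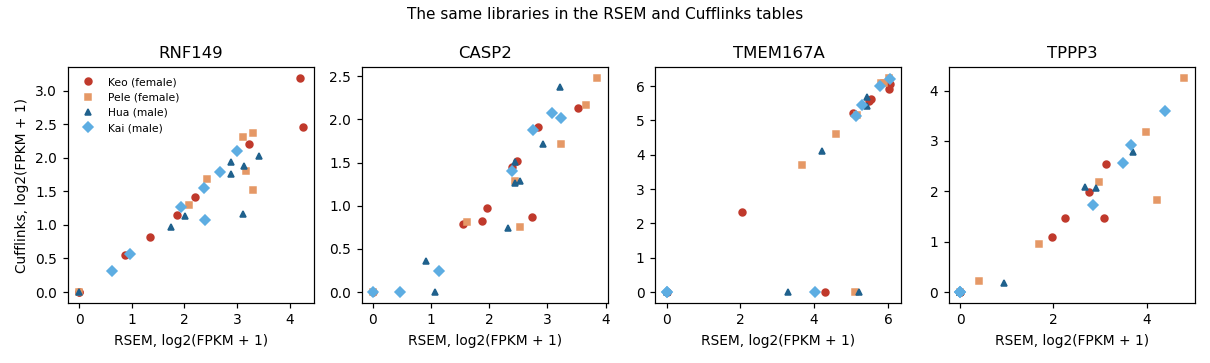
Level in the RSEM table (x axis) and in the Cufflinks table (y axis), both as log2(FPKM + 1), of RNF149, CASP2, TMEM167A and TPPP3, with a point for each of the 31 libraries. Points of TMEM167A lie along a line or, in 5 libraries with 8.77 to 36.5 FPKM by RSEM, at 0 by Cufflinks.

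Some of these values rested on few reads. RNF149 had 3 to 120 reads in the libraries above 0 (median 25 over all libraries, 6 libraries under 10 reads), CASP2 5 to 221 (median 58, 5 libraries) and TPPP3 1 to 139 (median 15, 15 libraries), as recovered from the FPKM steps. Whole reads came out within 0.15 of a read in 27 of 27 libraries above 0 for RNF149, 28 of 28 for CASP2, 16 of 16 for SHISA2 and 18 of 19 for TPPP3. For TMEM167A they came out in 18 of 24 and for CCSER2 in 13 of 30, so no read number is given for these 2 genes.

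Sex was not a term in the fits that chose the genes, so a difference between the sexes counted there as scatter. None of the 6 genes was called between females and males with limma, where 12.1% of 9610 genes were called higher and 0.937% lower in females. One of the 6, SHISA2, had an unadjusted p under 0.05, against 32.0% of all genes. Because the choice favoured genes with little such scatter, nothing is read from these counts. SHISA2 averaged 1.40 in females and 0.47 in males on the log2 scale, a difference of 0.93 (SE 0.37, adjusted p = 0.0803). It was at 0 in 5 of 16 female libraries and in 10 of 15 male libraries, and the ranges, 0 to 11.0 FPKM in females and 0 to 4.78 in males, overlapped. Leaving out the December library of Hua, its highest in a male, gave a difference of 1.07 with an adjusted p of 0.0489. Over all alternatives the adjusted p lay between 0.0489 and 0.410.

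TMEM167A averaged 4.42 in females and 3.33 in males (difference 1.10, SE 0.74, adjusted p = 0.30), and CCSER2 1.75 in females and 1.22 in males (difference 0.54, SE 0.29, adjusted p = 0.200). The difference was 0.31 for TPPP3 (SE 0.57, adjusted p = 0.717), 0.23 for CASP2 (SE 0.37, adjusted p = 0.683) and 0.00 for RNF149 (SE 0.42, adjusted p = 0.999). Over all genes the median difference was 0.34, so RNF149, CASP2 and TPPP3 lay below that shift. After median-ratio scaling, which brought the median of all genes to 0.04, the genes called were 57 higher and 175 lower, against 1162 and 90 on the deposited values. With 2 animals of each sex, sex and individual cannot be told apart beyond these 4 dolphins, and repeated libraries of a dolphin entered as independent. Libraries of females had a median of 344.5 genes at 0, and those of males 601. Of the neutrophil markers 6 of 8 were called higher in females (summed level 5830 to 17000 FPKM in females and 3010 to 8770 in males), and of the erythroid markers 3 of 13 were called lower (60000 to 343000 in females and 124000 to 348000 in males). Called higher in females were also 3 of 8 monocyte, 1 of 10 T cell, 2 of 10 cytotoxic and NK cell and 1 of 4 platelet markers. All genes stood at 12.1% higher and 0.937% lower. After scaling 0 of the neutrophil markers were called. One monocyte marker was then called higher in females, and 4 erythroid and 1 eosinophil and basophil marker lower. The part of these in the values of the 6 genes was not tested.

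**Figure D5:**
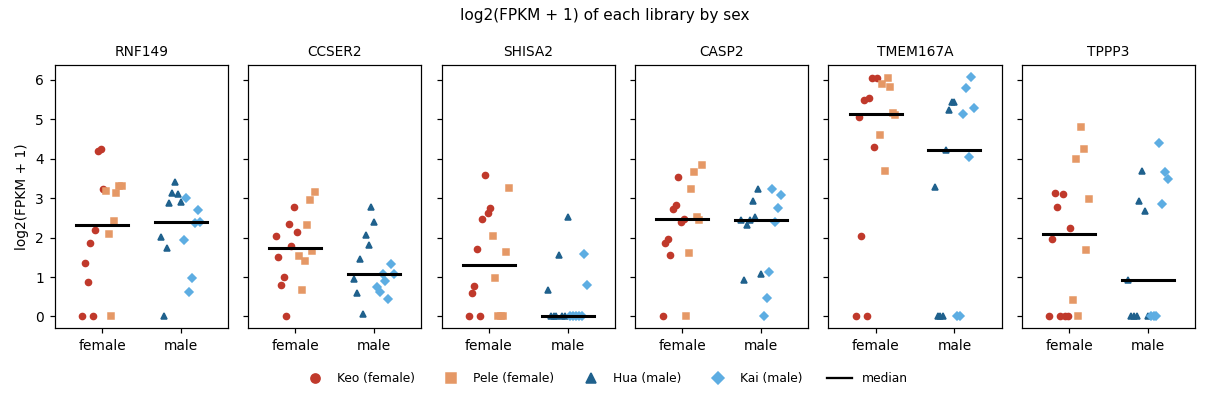
Level as log2(FPKM + 1) (y axis) of each of the 6 genes in the 16 female libraries (left) and the 15 male libraries (right), with a marker per library by dolphin and a black line at the median. Females and males overlap for all 6 genes, and SHISA2 has 10 male libraries at 0 and 5 female ones.

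Differences between the individual dolphins were likewise not called for any of the 6 genes, where 10.3% of 9610 genes were called (F test over 4 animals) and 10.5% with the annual wave in the model. At an unadjusted p under 0.05 stood 0 of the 6, against 30.7% of all genes. The choice also favoured genes with little scatter between animals, so nothing is read from these counts or from narrow spans. The order of the median levels of RNF149 was Pele (7.71 FPKM), Hua (6.38), Kai (4.15) and Keo (2.63), and its animal means spanned 0.49 log2 units (adjusted p = 0.836), less than the span of 0.74 that was the median over all genes. CASP2 spanned 0.61 (adjusted p = 0.823), with medians of 4.79 FPKM in Pele, 4.44 in Hua, 4.27 in Kai and 4.25 in Keo. CCSER2 spanned 1.07 (adjusted p = 0.243), its means on the log2 scale running from 0.88 in Kai to 1.95 in Pele. Its medians were 2.44 FPKM in Keo, 2.17 in Pele, 2.11 in Hua and 0.86 in Kai. SHISA2 spanned 1.27 (adjusted p = 0.208), with 2.26 FPKM in Keo, 0.98 in Pele and 0 in Hua and Kai. TPPP3 spanned 1.31 (adjusted p = 0.518) and TMEM167A 2.23 (adjusted p = 0.390), the widest of the 6, with medians of 34.5 FPKM in Pele, 34.0 in Kai, 32.2 in Keo and 13.2 in Hua. For TPPP3 the medians were 6.88 FPKM in Pele, 6.25 in Kai, 2.90 in Keo and 0.455 in Hua. The ranges of neighbours in these orders overlapped for all 6 genes.

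The 6 genes did not all follow one another. With the mean of each animal removed, RNF149 and SHISA2 correlated at r = 0.66, RNF149 and CCSER2 at 0.50 and CCSER2 and TMEM167A at 0.52 over the 31 libraries. TMEM167A and TPPP3 correlated at 0.60 and CASP2 and TPPP3 at 0.51, whereas SHISA2 and TPPP3 stood at 0.01. TMEM167A had r of 0.47 to 0.60 with each of the other 5. Zeros in shared libraries enter all of these values.

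The 3 genes most like each of the 6, by the same measure, came from many pathways. For RNF149 they were DKC1, which modifies ribosomal RNA and telomerase RNA (r = 0.76), RFK, the riboflavin kinase (0.71), and C19orf40 of the Fanconi anaemia DNA repair pathway (0.69). For CCSER2 they were ENPP5 (0.75), the zinc finger gene ZNF800 (0.74) and BRWD3, a bromodomain protein (0.72), and for SHISA2 C9orf41 (0.75), the endosomal lipid kinase PIKFYVE (0.74) and RTN4, which shapes the endoplasmic reticulum (0.74). CASP2 had the closest companions, ITPRIP (0.88), the COPII coat gene SEC31A (0.87) and the nucleotidase gene NT5C2 (0.83), all 3 above 0 in every library. For TMEM167A they were MGME1, an exonuclease of mitochondrial DNA (0.79), the ubiquitin ligase gene RNF138 (0.77) and the signal peptidase gene SEC11C (0.76), and for TPPP3 PPHLN1 (0.72), the uridine kinase gene UCK1 (0.72) and again SEC11C (0.71). After median-ratio scaling r stayed between 0.64 and 0.86 for these genes, which were picked for their likeness to genes chosen by the wave.

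Relatives of the 6 genes were followed by family and pathway, against a median amplitude of 0.25 over all genes, 7.59% of genes at an unadjusted p under 0.05 for the wave, 12.1% called higher in females and 0.937% called lower. Of 12 PA-TM-RING ubiquitin ligases 5 were measured, and the 4 beside RNF149 had a median amplitude of 0.22 with none at an unadjusted p under 0.05. RNF13, an endosomal ligase and the nearest to a wave among them, had an amplitude of 0.27. RNF167 was higher in females by 0.44 (SE 0.14, adjusted p = 0.0341), and the other 3 were not called.

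Of 27 caspases and regulators of apoptosis 22 were measured. Beside CASP2 the 21 others had a median amplitude of 0.27, and 1 of them, CRADD, the adaptor that recruits CASP2 to its scaffold, had an unadjusted p under 0.05, with an amplitude of 0.74 and a peak in October. Between the sexes 3 of the 21 were called higher in females, near the 12.1% of all genes, none lower and 18 not called.

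Among 26 measured genes of the early secretory pathway (of 28), the 25 beside TMEM167A had a median amplitude of 0.23, and 1 had an unadjusted p under 0.05, the cargo receptor TMED10 (amplitude 0.40, peak in November). Of the 25, 5 were higher in females, among them the coatomer subunit COPG1 (0.59, SE 0.14, adjusted p = 0.00601) and the retrieval receptor KDELR1 (0.86, SE 0.22, adjusted p = 0.0125), with none lower and 20 not called, against 12.1% of all genes called higher. Of 32 tubulins and microtubule-binding genes 21 were measured, and the 19 beside CCSER2 and TPPP3 had a median amplitude of 0.27 with none at an unadjusted p under 0.05. TUBB2A came nearest, with 0.61 and a peak in June. The tubulins TUBA4A (0.35, SE 0.11, adjusted p = 0.0348) and TUBA1B (0.46, SE 0.15, adjusted p = 0.0360) were among 3 called higher in females, with none lower and 16 not called, again beside 12.1% of all genes.

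Of 31 Shisa, Wnt and FGF receptor genes 13 were measured. The 12 beside SHISA2 had a median amplitude of 0.31, and 2 had an unadjusted p under 0.05, among them AXIN2, a feedback target of Wnt signalling (amplitude 0.47, peak in September). SHISA5, a relative of SHISA2, was higher in females by 0.82 (SE 0.18, adjusted p = 0.00466), as was AXIN1 by 0.53 (SE 0.18, adjusted p = 0.0405), with none lower and 10 not called. None of the 14 measured circadian clock genes (of 23) had an unadjusted p under 0.05 for the wave, and their median amplitude was 0.20. TIMELESS (0.90, SE 0.20, adjusted p = 0.00439) and NFIL3 (0.62, SE 0.17, adjusted p = 0.0142) were among 4 clock genes higher in females, with none lower and 10 not called. After median-ratio scaling the genes at an unadjusted p under 0.05 for the wave were 1 in the clock list and 2 in the tubulin list, and 0 in the PA-TM-RING, caspase, secretory and Shisa lists. The sex calls of the Shisa list (2 of 12) and the clock list (4 of 14) likewise stood beside 12.1% of all genes called higher. Of the 18 genes of these 6 lists called higher in females, 0 were called after median-ratio scaling, where TUBA4A changed sign to -0.02.

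Markers of blood cell types were followed in the same way, since their share of the blood could move with the 6 genes. The wave had an unadjusted p under 0.05 for 3 of 10 T cell markers, with CD3D, a chain of the T cell receptor complex, nearest (amplitude 0.46, peak in October), and for 2 of 10 cytotoxic and NK cell markers, with the granzyme GZMA nearest (0.88, September), against 7.59% of all genes. After median-ratio scaling it had such a p for 1 T cell and 1 cytotoxic and NK cell marker. It had such a p for 1 of 13 erythroid markers (GATA1, 0.32, February). None of 8 B cell, 5 eosinophil and basophil or 4 platelet markers had one, and none of all these markers was called. Median amplitudes ran from 0.17 for erythroid to 0.42 for T cell markers. After median-ratio scaling they ran from 0.17 for monocyte to 0.40 for platelet markers, with 0.32 for erythroid and 0.29 for T cell markers. The part of cell composition in the waves of the 6 genes was not tested.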

How the data were processed

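The authors made libraries with a strand-marking kit, trimmed reads with Trimmomatic and mapped them to the Ensembl dolphin genome turTru1. They deposited FPKM from RSEM 1.2.18 with Bowtie2 2.2.4 (9610 genes, 8865 with a symbol, limited to a mean of at least 1 FPKM and, as the values show, above 0 in at least 16 libraries) and from Cufflinks 2.2.0 with TopHat2 2.3.13 (8030 genes). Read totals per library were not used. A de novo table and tables of the authors' seasonal and sex comparisons (EBSeq fold changes) were not used.

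The 6 genes, gene lists and tests were chosen with earlier results of these data known. Named relatives were those with the smallest p per list (2 by sex, 1 by the wave), and companions the 3 highest correlations per gene. Some genes that this rule names are not reported here. limma 3.58.1 in R 4.3.3 (eBayes with a trend, two-sided, Benjamini-Hochberg over 9610 genes, threshold 0.05) was fitted to log2(FPKM + 1), with libraries as replicates. Whether the libraries of a dolphin were processed separately is not stated, and p-values measure the spread between libraries. Relative depth and reads came from the steps of low FPKM values. Gene sequences and coordinates were not used, as the reference at hand was of another build. Alternatives were another pseudocount (0.1), median-ratio scaling, a mean of at least 5 FPKM, the Cufflinks table, linear FPKM, an animal block, annual covariates, and leaving out each animal or library.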

Additional observations from a re-analysis of the deposited data

Results flagged for a closer look

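Within each dolphin 24 sets of values (6 genes in 4 animals) were examined for a library far from the rest, and 3 stood out, all of SHISA2. They were the December library of Hua, with 4.78 FPKM against 1.93 in the next, the September library of Kai, with 1.99 FPKM against 0.73, and the December library of Pele, with 8.61 FPKM against 3.11. The limit used is one that about 1 of 20 sets of normally spread values passes by chance, a rate that was not tested for sets with many zeros. SHISA2 was listed at 0 in 5 of the 8 libraries of Hua, 5 of the 7 of Kai and 3 of the 7 of Pele.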

How the results depend on the processing

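The annual wave called 0 genes in every setting run but the leaving out of single libraries, which gave 0 to 1 genes, and summer against winter called 0 in the settings run for it (scaling, the Cufflinks table, an animal block and both settings on zeros). The number higher in females was 1162, and 715 to 1560 when 1 library was left out, lowest without those of Kai from February (715) and April (731) and of Pele from December (772), and the number lower 90, and 65 to 106. Median-ratio scaling gave 57 higher and 175 lower. Leaving out Kai gave 526 and 38, Keo 255 and 40, Pele 191 and 34, and the 8 libraries with over 800 genes at 0, chosen after seeing the data, 22 and 10. Between animals 988 genes were called, 613 to 1493 without 1 library (622, 613 and 656 without those of Kai from February, April and July, 1493 without that of December) and 153 without those 8. The difference of RNF149 between the sexes had no stable sign: it was -0.30 with a pseudocount of 0.1, -0.25 after scaling, -0.11 with annual covariates, -0.18 without Kai, -0.21 without Pele, -0.014 with the number of genes at 0 as a covariate, and -0.16 to 0.15 without 1 library. That of TPPP3 was -0.10 without Hua and -0.18 without Pele, and that of CASP2 -0.049 without the 8 libraries. With a pseudocount of 0.1 the amplitude was 2.13 for SHISA2, 1.80 for RNF149, 1.33 for CCSER2, 1.70 for CASP2, 2.93 for TMEM167A and 1.91 for TPPP3. In the Cufflinks table it was 0.67 for RNF149, 0.66 for CASP2, 1.43 for TMEM167A and 0.74 for TPPP3. Among the genes with a read number, SHISA2 and TPPP3 had the fewest reads, at a median of 2.02 and 15. Replicate numbers only count libraries within an animal and pair none. With the animal as a block, summer minus winter was 2.05 for TPPP3, 1.40 for TMEM167A, 1.09 for CASP2, 0.32 for RNF149, 0.09 for CCSER2 and -0.57 for SHISA2.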

Other observations

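The gene with the smallest p for the annual wave had no symbol (ENSTTRG00000016735) and had its peak in midwinter. It was at 0 in 5 of 8 summer libraries, which ranged to 9.47 FPKM, and above 0 in all 8 winter libraries, from 2.75 to 38.4 FPKM with a median of 12.6, so that the seasons overlapped. Its fitted peak fell on 8 January, a month without a library, with an amplitude of 1.70, and in the animals on 13 January in Keo, 17 January in Pele, 18 December in Hua and 19 February in Kai. Of the genes with a symbol just behind the 6, BCKDHB, a subunit of the branched-chain keto acid dehydrogenase, was above 0 in every library and had its peaks within about a week of each other in 3 of the dolphins, on 30 September in Keo, 7 October in Pele and 3 October in Hua, with 24 September in Kai. Its 15 July to December libraries ranged from 3.11 to 18.6 FPKM (median 8.62) and its 16 February to June libraries from 0.25 to 8.29 (median 3.24). MTFP1, of mitochondrial fission, and RP9, a splicing-associated gene, were at 0 in 13 and 15 libraries. RP9 was above 0 in 6 of 8 summer and 2 of 8 winter libraries.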
